A study of Mus musculus with 2 samples.

Results

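The 34 genes described here encode the glucose transporters, glycolytic enzymes and lactate exporter that carry glucose to lactate, together with hypoxia-inducible factor 1 alpha (HIF-1 alpha), its oxygen-sensing hydroxylases and a set of well-known HIF target genes. They were taken by symbol from a fixed list, and all 34 were found among the 32285 gene identifiers of the deposited matrices. The rule that selects them uses symbols and no level. Aldoa is listed under 2 identifiers, which were summed.

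Cells came from liver tumours of C57BL/6 mice. The mice received 5000000000 CFU of Akk (Akkermansia muciniphila, a gut bacterium) by mouth, or PBS as the vehicle control, starting 2 weeks before an MCD diet. After 2 weeks on that diet, RIL-175 mouse hepatoma cells carrying luciferase were implanted into the liver, dosing was interrupted for 6 days, and it then ran to the end of the experiment. The diet, the implant and the cell line were common to both groups, so neither group is an untreated liver. Viable CD45+ cells were sorted and captured with 10x 3′ chemistry, giving 1 library per group, called PBS and AKK here. The sources do not say how many mice each library held. With 1 library per group there was no test between them: "higher" and "lower" describe these libraries, and the 95% intervals cover counting error only.

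The PBS matrix held 5088 cell barcodes and 64731604 unique molecular identifiers (UMIs, each a captured RNA molecule), and the AKK matrix 6610 barcodes and 74495998 UMIs. After filtering and doublet removal, 4646 and 6177 cells remained, with medians of 6736 and 6369 UMIs. The libraries shared 8 barcodes. Cells were clustered without the 34 genes and named from marker lists, so that class names do not rest on them. Despite the CD45 gate, 134 PBS and 98 AKK cells met the tumour/epithelial marker list. A group of 223 PBS and 140 AKK cells led by Arg1 is called Arg1-led myeloid cells. Its summed macrophage and monocyte marker levels were nearly equal (5044 and 5042 CPM in PBS, 4869 and 5168 in AKK). CPM is a gene's UMIs scaled to a common class total. By mean log2 marker score, its clusters had 3.496, 4.531 and 3.555 for macrophage against 2.074, 2.481 and 2.899 for monocyte. The last cluster had 3.458 against 3.747. A further cluster split from the same parent, also led by Arg1, was named macrophage-like. Arg1 was also among the leading genes of the other macrophage-like clusters.

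In glycolysis, hexokinases and phosphofructokinase commit glucose to breakdown, a payoff phase from aldolase to pyruvate kinase yields ATP, and lactate dehydrogenase regenerates the NAD+ that keeps the pathway running. When oxygen is low, the prolyl hydroxylases no longer mark HIF-1 alpha for destruction, and the stabilised protein binds hypoxia response elements whose core reads ACGTG or GCGTG. HIF-1 alpha is regulated mainly at the protein level. Neutrophils carry few mitochondria and depend on glycolysis for energy.

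The promoters of a few members are shown because each holds the core element and all are members whose levels differ between the neutrophil subsets described further on. RefSeq promoter windows (GRCm38.p6) were found for 30 of the 34 genes; Slc2a3, Bnip3l, Ndrg1 and Ero1l had no entry. Each line gives the 250 bases before the annotated start, 5′ to 3′ on the gene's strand, with core elements of either strand in capitals (ACGTG or GCGTG, or their reverse complements CACGT and CACGC). The windows lie at chr10:59323046-59323295 (plus strand) for P4ha1, chr2:71872974-71873223 (plus strand) for Pdk1, chr6:82774455-82774704 (minus strand) for Hk2, and chrX:106186850-106187099 (plus strand) for Pgk1.
P4ha1: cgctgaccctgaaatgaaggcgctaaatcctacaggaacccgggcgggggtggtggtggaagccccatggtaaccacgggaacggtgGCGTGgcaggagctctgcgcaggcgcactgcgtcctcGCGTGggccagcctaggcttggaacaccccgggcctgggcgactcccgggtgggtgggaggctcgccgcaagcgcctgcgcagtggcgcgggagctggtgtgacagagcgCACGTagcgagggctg
Pdk1: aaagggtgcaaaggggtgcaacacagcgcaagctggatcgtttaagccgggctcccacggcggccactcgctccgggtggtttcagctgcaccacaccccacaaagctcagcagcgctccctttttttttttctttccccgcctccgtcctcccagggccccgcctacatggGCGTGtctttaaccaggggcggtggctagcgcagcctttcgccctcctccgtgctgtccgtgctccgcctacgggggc
Hk2: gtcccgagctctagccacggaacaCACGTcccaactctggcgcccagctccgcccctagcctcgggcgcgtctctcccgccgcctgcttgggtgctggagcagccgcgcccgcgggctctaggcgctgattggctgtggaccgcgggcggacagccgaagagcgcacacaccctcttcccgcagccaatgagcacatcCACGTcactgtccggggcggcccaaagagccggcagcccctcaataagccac
Pgk1: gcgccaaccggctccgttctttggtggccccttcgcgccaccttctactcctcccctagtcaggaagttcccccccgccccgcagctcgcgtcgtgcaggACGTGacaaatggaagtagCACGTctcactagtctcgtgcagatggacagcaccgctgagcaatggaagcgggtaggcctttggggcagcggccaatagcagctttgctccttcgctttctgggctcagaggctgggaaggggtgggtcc
P4ha1 held 3 cores, beginning 163, 126 and 16 bases before its start. Pgk1 held 2, at 150 and 131 bases, and Hk2 held 2, at 226 and 52 bases. Pdk1 held 1, at 78 bases, in the window shown, and 0 in its other window at chr2:71874654-71874903. Over the members' 43 windows (several genes have more than 1 start), 34 held at least 1 core, or 79.1%, against 38.6% of 32851 promoter windows of the same length. ACGTG alone was in 51.2% of the members' windows and in 16.6% of all. The members' windows were also richer in G and C, with a median of 62.8% against 52.4%, and the part of that in the motif count was not tested. Genes known as HIF targets were listed for that reason, so the motif share describes the list and is not evidence about these cells. All the members shown were higher in 2 of the subsets described further on. Hif1a held 3 cores and Slc16a3 held 2, and neither was higher there, whereas Tpi1 held 0 and was higher.

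Across cell classes the summed share of UMIs from the 34 genes was highest in Arg1-led myeloid cells, at 1.47% in PBS and 1.68% in AKK. Tumour/epithelial-like cells followed with 0.984% and 1.16%, then macrophage-like cells with 0.935% and 1.05% and neutrophil-like cells with 0.825% and 0.782%. Monocyte-like cells reached 0.653% and 0.575%. Lymphocytes were lowest: T-like cells had 0.451% and 0.419%, NK/ILC1-like cells 0.284% and 0.273%, and B-like cells 0.186% and 0.199%. Arg1-led, tumour/epithelial-like and macrophage-like cells were the top 3 named classes in both libraries, whereas neutrophil-like cells were above cDC2-like cells (0.758% and 0.796%) in PBS and below them in AKK. All kept cells together gave 0.787% in PBS and 0.68% in AKK, pooled over classes whose parts differed between the libraries.

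**Figure D1:**
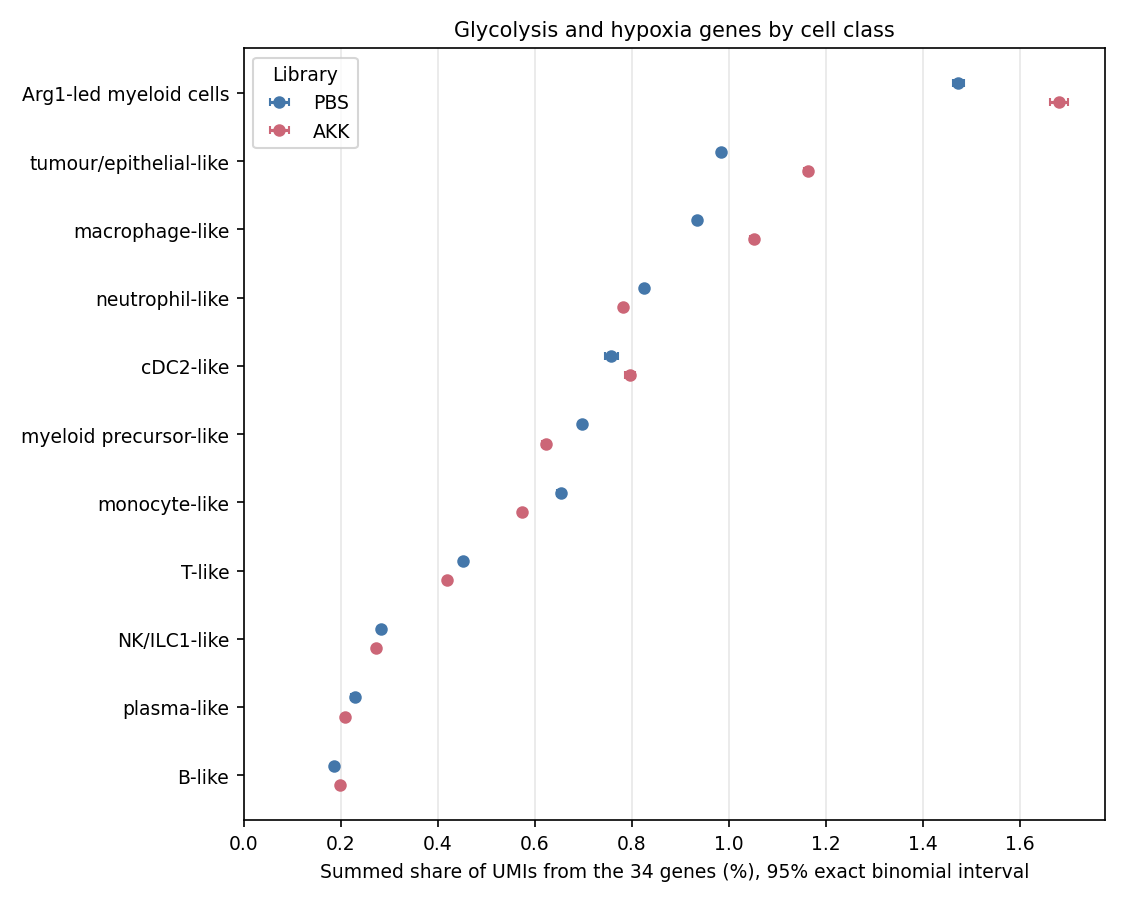
Summed share of UMIs from the 34 genes (x axis, percent) in each cell class with at least 50 cells per library (y axis), PBS in blue and AKK in red, with 95% exact binomial intervals. Arg1-led myeloid cells stand at 1.47% and 1.68%, and B-like cells at 0.186% and 0.199%.

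Several members had their highest level in neutrophil-like cells, which did not have the highest summed share. Slc2a3, a high-affinity glucose transporter, had 384 CPM in PBS and 399 in AKK in neutrophil-like cells. Its levels in macrophage-like cells were 12.8 and 12.3 CPM. Slc16a3, the lactate exporter MCT4, reached 371 and 430 CPM in neutrophil-like cells, 221 and 301 CPM in Arg1-led myeloid cells, the next highest, and 3.46 and 6.41 CPM in B-like cells. Egln3, the HIF prolyl hydroxylase PHD3, had 569 and 520 CPM in neutrophil-like cells and 9.00 and 5.13 CPM in B-like cells. Its level in Arg1-led cells was 316 CPM in PBS and 511 in AKK, the latter close to the neutrophil-like level. For these 3 genes the neutrophil-like level was the highest of the 11 classes with at least 50 cells per library in both libraries.

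Vegfa, which encodes the main blood vessel growth factor, was highest in Arg1-led myeloid cells (609 and 597 CPM) and lowest in T-like cells (13.9 and 11.6 CPM). Among lymphocytes it was high in NK/ILC1-like cells, at 193 CPM in PBS and 191 CPM in AKK. A Vegfa UMI was found in 65.9% of NK/ILC1-like cells in PBS and 57.5% in AKK, against 11.6% and 8.88% of T-like cells. Median depth was similar, at 9456 and 8700 UMIs in NK/ILC1-like cells and 9471 and 8885 UMIs in T-like cells. Bnip3, a mitophagy receptor, was also highest in Arg1-led myeloid cells, with 349 and 493 CPM.

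Set against T-like cells, neutrophil-like cells had 17 of 33 measured members higher in both libraries. A gene counted as past the threshold when its ratio was at least 1.5 or at most its inverse, the 95% interval left out 1, and it had at least 20 UMIs. Of all 12505 genes measured, 19.4% passed in that direction. Hk3, a myeloid hexokinase, was 37.1-fold higher in PBS and 33.7-fold in AKK. Pfkfb4, which sets the allosteric activator of phosphofructokinase, was 12.1-fold and 12.9-fold higher. In the other direction, 51.8% of all genes but only 2 members passed: Pdk1, the kinase that inhibits pyruvate dehydrogenase, and Egln1, the main oxygen-sensing hydroxylase PHD2. Dissociation stress genes had 10 of 15 higher in neutrophil-like cells, and their part was not tested.

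Arg1-led myeloid cells had higher levels of many hypoxia genes than macrophage-like cells. The groups are related, because a cluster split from the same parent is counted as macrophage-like. Of 34 members, 14 were higher in both libraries and none lower, against 4.47% and 6.22% of 10930 genes. The 14 included 6 of 11 hypoxia response genes outside the HIF group, such as Ndrg1 at 2.55-fold in PBS and 2.92-fold in AKK and Ankrd37 at 3.03-fold and 3.39-fold. Egln3 was 3.76-fold and 3.88-fold higher. Of the 8 genes from hexokinase to phosphofructokinase 2 passed (Hk1 and Gpi1), and Hk2 stood at 0.775 and 0.808 of the macrophage-like level. Tricarboxylic acid cycle genes, the mitochondrial route for pyruvate, had 0 of 21 higher and 2 lower. Dissociation stress genes had 2 of 15 higher, with Hspa1a at 5.60-fold and 5.68-fold, and their part in the members' levels was not tested.

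Neutrophil-like cells were then divided into subsets, labelled by their leading genes or by the marker list they met. Subsets were formed from the same cells without the 34 genes. For 6 of the 8 subsets with at least 50 cells per library the summed share lay between 0.544% and 0.703% in both libraries. The other 2 stood well above: an Atp6v0d2 and Nos2 subset at 1.66% in PBS and 1.79% in AKK, and an Hspa1a and Hspa1b subset at 2.01% and 2.49%. The Atp6v0d2 and Nos2 subset (127 PBS and 249 AKK cells) met the marker list for activated neutrophils with Acod1 and Cxcl3. The Hspa1a and Hspa1b subset (210 and 100 cells) met no list and is led by heat shock genes.

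**Figure D2:**
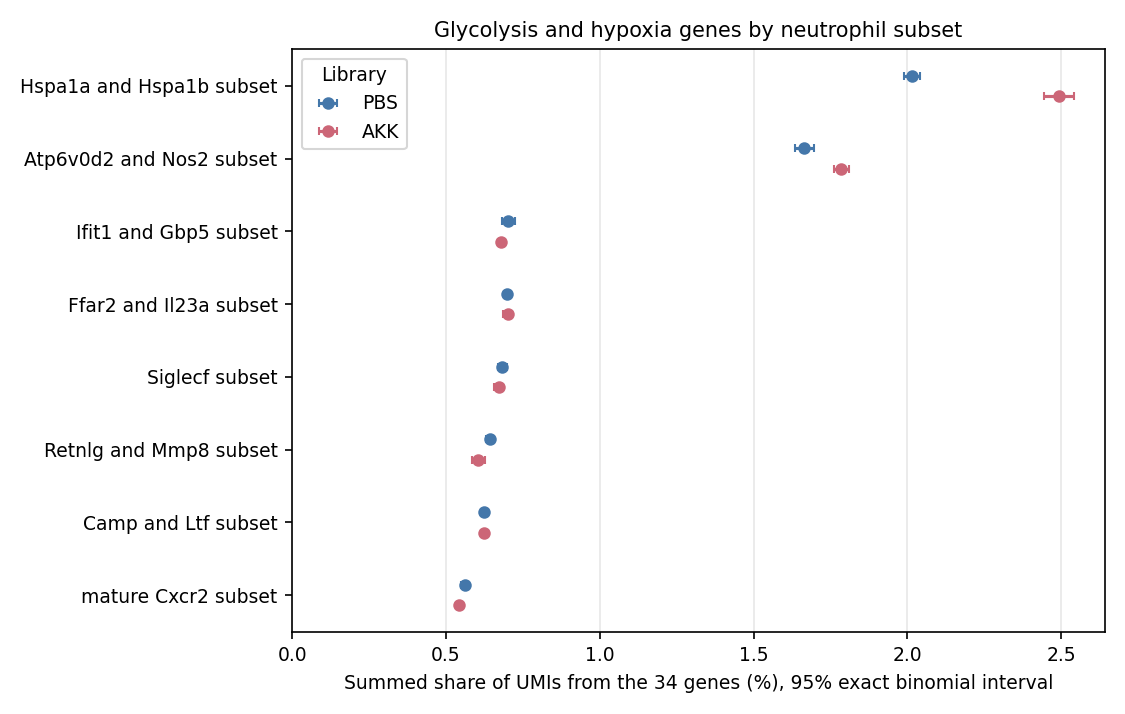
Summed share of UMIs from the 34 genes (x axis, percent) in 8 neutrophil subsets (y axis), PBS in blue and AKK in red, with 95% exact binomial intervals. The Hspa1a and Hspa1b subset (2.01% and 2.49%) and the Atp6v0d2 and Nos2 subset (1.66% and 1.79%) lie above the other 6, which span 0.544% to 0.703%.

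The contrast was also seen in most cells of these clusters at equal depth. After each cell was thinned to 2000 UMIs, the median cell of the mature Cxcr2 subset held 10.5 UMIs of the 34 genes in PBS and 10 in AKK. The median was 31 and 33 in the Atp6v0d2 and Nos2 subset, and 39 and 53 in the Hspa1a and Hspa1b subset. The lower quartiles of both high subsets (21.5 and 23, and 22.8 and 28) lay above the 95th percentile of the mature subset (21 and 20). The spread within the high subsets was wide. Their 5th percentiles were 9.9 and 12 for the first and 8.75 and 10 for the second, near the mature median. Their 95th percentiles were 67 and 74.9 for the first and 91.5 and 105.2 for the second. Cells under 2000 UMIs were left out, 30 and 74 in the mature subset, 8 and 26 in the Atp6v0d2 and Nos2 subset and 14 and 11 in the Hspa1a and Hspa1b subset.

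**Figure D3:**
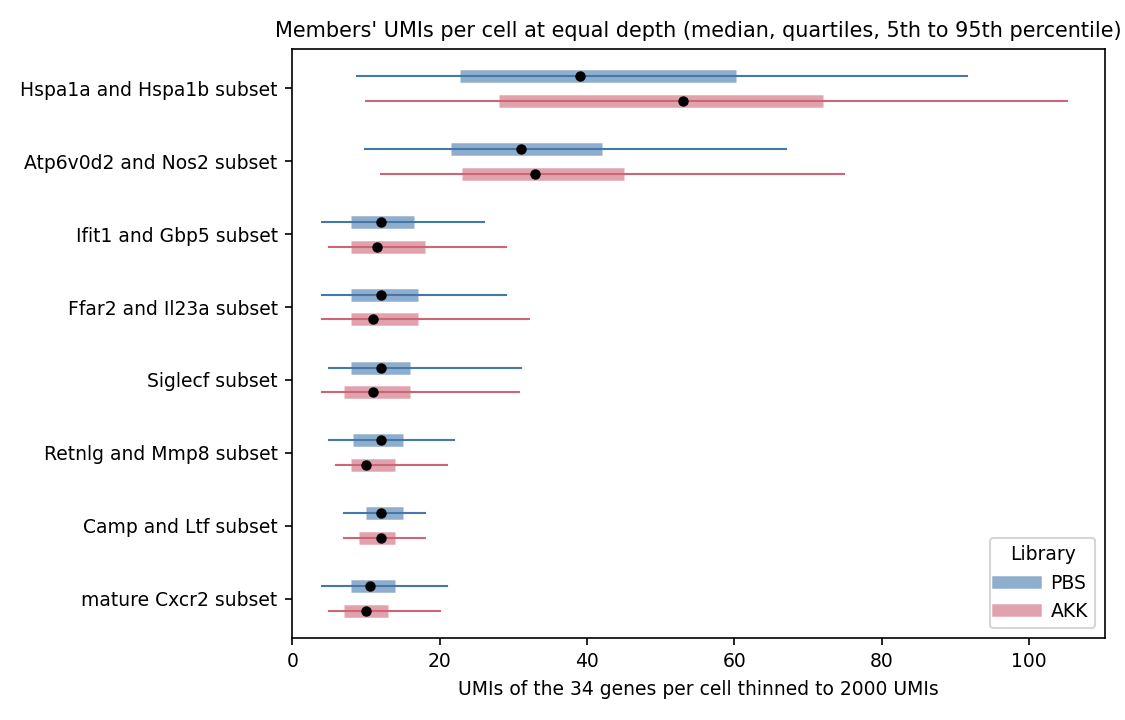
UMIs of the 34 genes per cell after thinning to 2000 UMIs (x axis) in 8 neutrophil subsets (y axis), PBS in blue and AKK in red; black points are medians, thick bars the quartiles and thin lines the 5th to 95th percentiles. Medians are 31 to 53 in the top 2 subsets and 10 to 12 in the other 6.

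The mature Cxcr2 subset (436 PBS and 891 AKK cells) served as the reference for single genes. In the Atp6v0d2 and Nos2 subset 27 of 33 measured members were higher in both libraries, against 12.1% of 6802 genes, and 2 were lower, against 15.1%. In the Hspa1a and Hspa1b subset 28 of 33 were higher, against 13.6% of 6981 genes, and none was lower, against 14%. The median member log2 ratio was 1.70 in PBS and 2.08 in AKK for the first, where all genes had -0.10 and 0.10. For the second it was 1.80 and 2.27, where all genes had -0.15 and -0.08. Clusters were formed from these same cells, so the counts describe the subsets and are no test of them.

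Glucose uptake split between its 2 transporters. Slc2a1 (GLUT1) had 272 CPM in PBS and 229 in AKK in the mature subset, 536 and 427 in the Atp6v0d2 and Nos2 subset, and 1120 and 1380 in the Hspa1a and Hspa1b subset. Slc2a3 went the other way in the Atp6v0d2 and Nos2 subset, with 129 and 358 CPM against 618 and 539 in the mature subset. In the Hspa1a and Hspa1b subset it had 545 and 993 CPM, which was 0.882 and 1.84 times the mature level.

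Among the early enzymes, Hk2, the inducible hexokinase, had 128 and 152 CPM in the mature subset and 1633 and 1883 CPM in the Hspa1a and Hspa1b subset, a ratio of 12.7 and 12.4. Pfkl, the liver-type phosphofructokinase, had 12.1 and 10.6 CPM in the mature subset and 251 and 282 CPM there. In the Atp6v0d2 and Nos2 subset Hk2 was 8.43-fold and 5.09-fold above the mature subset and Pfkl 12.6-fold and 12.5-fold. Pfkp, the platelet-type phosphofructokinase, was 3.64-fold and 3.55-fold above it there, and Hk1, Hk3 and Gpi1 (glucose phosphate isomerase) between 1.59-fold and 2.42-fold. Pfkfb4 was an exception, at 0.475 and 0.456 of the mature level in the Atp6v0d2 and Nos2 subset. Pfkfb3, its relative, did not pass there in both libraries (ratios 1.45 and 0.883).

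All 7 enzymes from aldolase to pyruvate kinase were higher in both subsets and both libraries. Tpi1, triosephosphate isomerase, had 51.5 and 41.5 CPM in the mature subset, 397 and 501.1 in the Atp6v0d2 and Nos2 subset, and 585 and 798 in the Hspa1a and Hspa1b subset. Gapdh, which many studies use as a constant reference gene, had 344 and 312 CPM in the mature subset and 1565 and 1382 in the Atp6v0d2 and Nos2 subset, a ratio of 4.55 and 4.43. Eno1 (enolase) was 3.21-fold and 5.60-fold above the mature level there, Pkm (pyruvate kinase) 2.84-fold and 2.99-fold, Aldoa 3.40-fold and 4.15-fold, Pgam1 6.11-fold and 5.00-fold and Pgk1 6.73-fold and 6.32-fold. Gapdh and other glycolytic genes have many near-identical pseudogene copies, and the sources do not say how the authors' counting divided such reads, so their levels are uncertain.

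At the pyruvate branch, Ldha, which makes lactate, had 136 and 122 CPM in the mature subset, 1045 and 1094 in the Atp6v0d2 and Nos2 subset and 1362 and 1452 in the Hspa1a and Hspa1b subset. Pdk1 was 8.07-fold and 13.2-fold above the mature subset in the first, and 23.9-fold and 21.4-fold in the second, from a mature level of 3.54 and 5.15 CPM. Slc16a3, which carries the lactate out, did not follow: its levels were 459 and 495 CPM in the mature subset, 341 and 367 in the Atp6v0d2 and Nos2 subset and 307 and 298 in the Hspa1a and Hspa1b subset.

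Hif1a mRNA was not higher in the high subsets. It had 617 and 610 CPM in the mature subset, 490 and 463 in the Atp6v0d2 and Nos2 subset and 475 and 403 in the Hspa1a and Hspa1b subset. The hydroxylases, which are HIF targets themselves, were higher. Egln3 had 499 and 421 CPM in the mature subset and 1109 and 1348 in the Atp6v0d2 and Nos2 subset, and Egln1 had 16.2 and 14.4 CPM against 90.1 and 139.5.

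The remaining hypoxia genes held the highest ratios. Ero1l, the endoplasmic reticulum oxidase that forms disulphide bonds, had 93.5 and 62.4 CPM in the mature subset, 1540 and 1766 in the Atp6v0d2 and Nos2 subset, and 2581 and 3032 in the Hspa1a and Hspa1b subset. The last is a ratio of 27.6 (95% interval 23.8 to 32.2) in PBS and 48.6 (42.2 to 56.2) in AKK. P4ha1, a collagen prolyl hydroxylase subunit, had 26.3 and 25.8 CPM in the mature subset and 1019 and 1393 in the Hspa1a and Hspa1b subset, the widest span of any measured member over the subsets (124-fold and 92.4-fold from highest to lowest). Ankrd37, an ankyrin repeat gene, spanned 44.8-fold and 55.8-fold, Pdk1 38.7-fold and 29.3-fold, Bnip3 32.9-fold and 28.9-fold, and Ero1l 27.6-fold and 48.6-fold. Except for Ero1l, lowest in the mature subset, the lowest level of each was in the Camp and Ltf subset. It rested there on few UMIs: 15 in PBS and 24 in AKK for P4ha1, 3 and 3 for Ankrd37, 4 and 6 for Pdk1 and 31 and 39 for Bnip3. Those spans are therefore uncertain. Hilpda, a lipid droplet protein that inhibits the lipase ATGL, had 73.8 and 33.1 CPM in the mature subset, 1317 and 1181 in the Atp6v0d2 and Nos2 subset and 938 and 1665 in the Hspa1a and Hspa1b subset. Bnip3 was 9.67-fold and 13.2-fold above the mature subset in the first and 13.3-fold and 18.1-fold in the second. Vegfa was 3.25-fold and 3.01-fold above it in the first, Bnip3l, a relative of Bnip3, 3.03-fold and 4.84-fold, and Higd1a 12-fold and 6.71-fold. Ndrg1, a stress-response gene, gave small ratios of 1.67 and 2.09. Adm, which encodes the vasodilator adrenomedullin, had 8 UMIs in PBS and 10 in AKK over the 8 subsets and was not measured there. Mxi1, a MYC antagonist, had 222 and 293 CPM in the mature subset and 165 and 144 in the Atp6v0d2 and Nos2 subset.

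**Figure D4:**
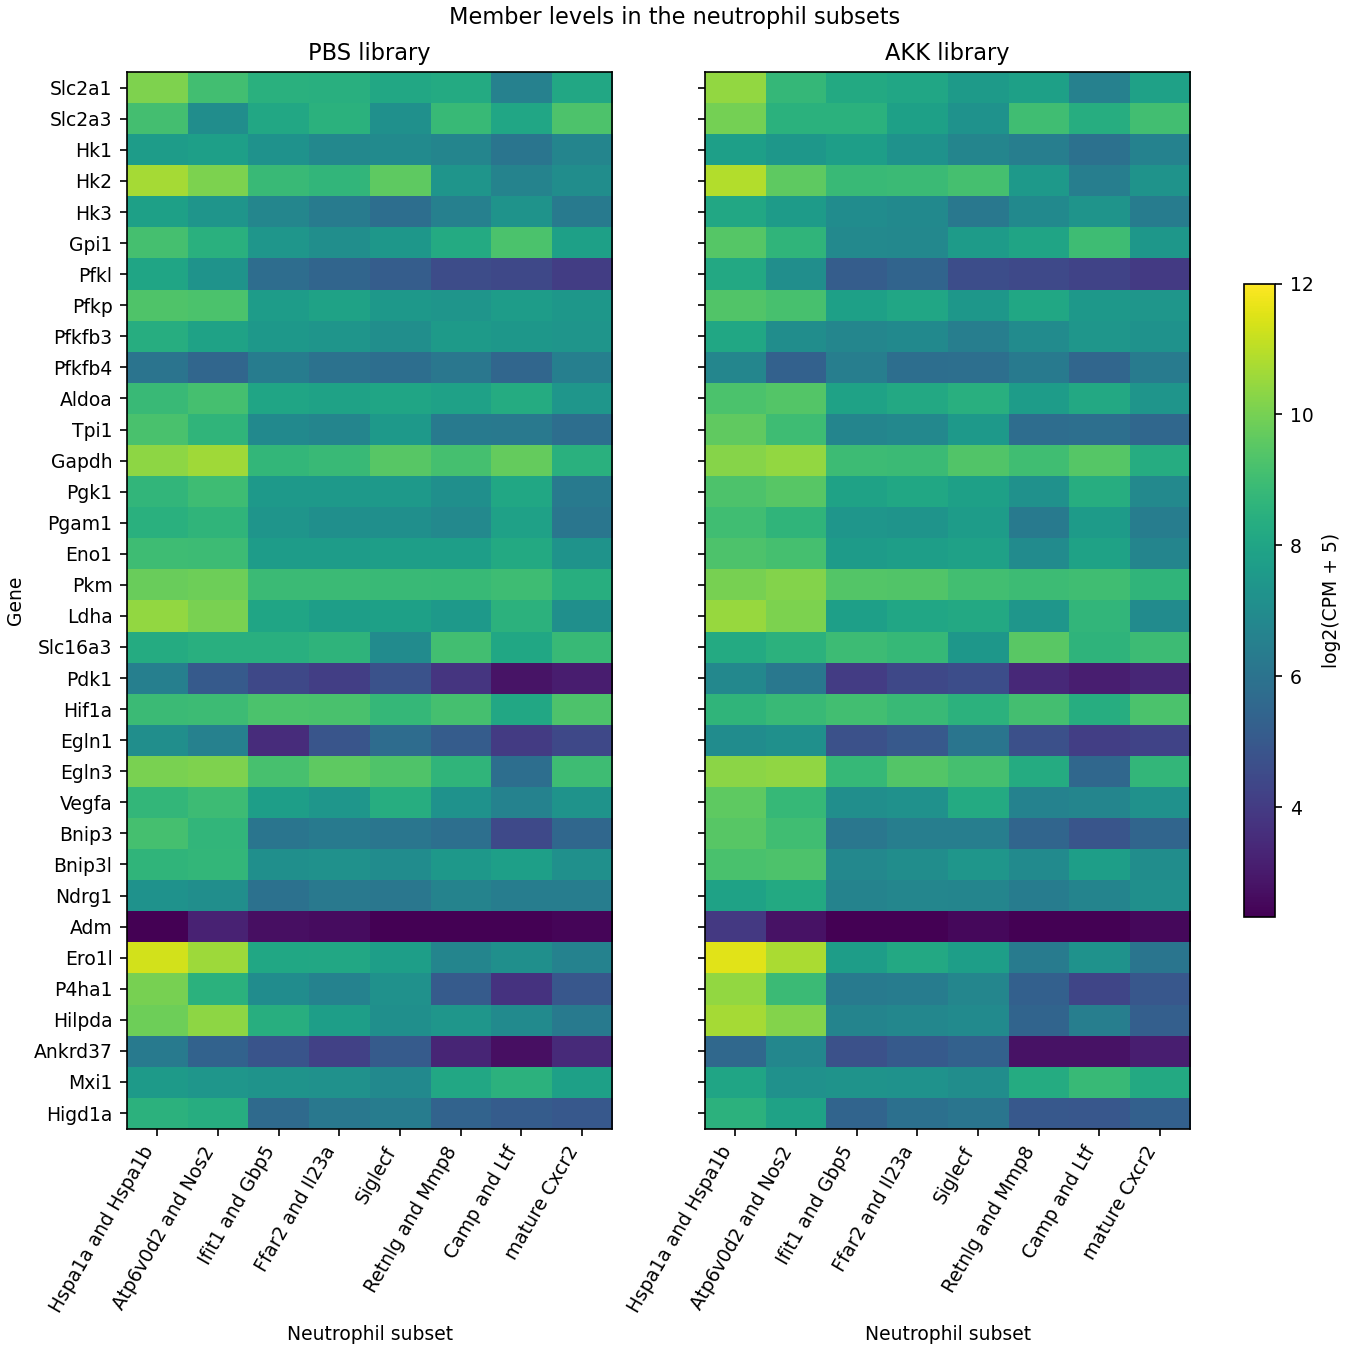
Level of each of the 34 genes (rows) in 8 neutrophil subsets (columns), as log2(CPM + 5) on the colour scale, PBS on the left and AKK on the right. Most rows are brightest in the 2 left columns of each panel, whereas Hif1a, Slc16a3 and Mxi1 are not.

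The 2 high subsets differed from each other in uptake, some early enzymes, Pdk1 and some hypoxia genes. Of 33 members 8 were higher in the Hspa1a and Hspa1b subset in both libraries and none lower, against 9.13% and 5.86% of 5169 genes. They were Slc2a1, Slc2a3, Hk2, Gpi1, Pfkl, Pdk1, Ero1l and P4ha1. Slc2a1 was 2.09-fold and 3.23-fold higher and P4ha1 2.82-fold and 2.89-fold. None of the 7 enzymes from aldolase to pyruvate kinase passed.

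Over the 8 subsets, each member's CPM was set against the summed share of the other 33, as a description of points that share their library. Spearman's rho was at least 0.7 in both libraries for 17 of 33 members, led by Pfkl (1.0 and 0.976) and Ero1l (0.952 and 0.976). It was below 0 in both for 4: Slc2a3, Slc16a3, Hif1a and Mxi1.

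Genes outside the list were read from pathway lists, each against the same background of 12.1% higher and 15.1% lower in the Atp6v0d2 and Nos2 subset and 13.6% and 14% in the Hspa1a and Hspa1b subset. At these shares a count of 0 in a list of 7 to 13 genes is near the background. Other glycolysis genes, such as further isozymes, had 4 of 25 measured, with 0 higher and 1 lower in the first subset (median log2 ratios -0.39 and -0.13) and 1 higher and 1 lower in the second. Of 19 further hypoxia response genes measured, 11 were higher in the Atp6v0d2 and Nos2 subset than in the mature subset and 1 lower, and 13 and 0 in the Hspa1a and Hspa1b subset. Fam162a, a mitochondrial HIF target, was 30.6-fold and 29.3-fold higher in the first, although it was among the genes that lead that subset. Mif, a cytokine gene, was 12.5-fold and 14.3-fold higher. Arnt, the partner of HIF-1 alpha, was lower at 0.285 and 0.28. Glycogen genes had 5 of 8 higher in each subset, with Gys1 (glycogen synthase) 9.07-fold and 9.17-fold above the mature level in the Atp6v0d2 and Nos2 subset, while Pygl, the phosphorylase that breaks glycogen down, was lower at 0.403 and 0.359. Gys1 and Gbe1 are on both the hypoxia and the glycogen list, so those lists are not independent. Pentose phosphate genes had 0 of 7 higher in either subset, with 4 lower in the first and 3 in the second; Taldo1 (transaldolase) stood at 0.19 and 0.159. Tricarboxylic acid cycle genes had 0 of 13 higher, with 0 and 1 lower.

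Genes induced by tissue dissociation also took a higher share of UMIs in these subsets. Their summed share was 1.32% in PBS and 1.36% in AKK in the mature subset, 1.90% and 1.53% in the Atp6v0d2 and Nos2 subset, and 2.61% and 2.36% in the Hspa1a and Hspa1b subset. All 15 listed genes were measured; 5 were higher and 1 lower in the first, and 7 higher and 1 lower in the second. Hspa1a was 97.1-fold and 282.2-fold above the mature level in the second. It and Hspa1b are on the dissociation list but also lead and name that subset, so their high level there follows from how it was formed. The part of dissociation in the members' levels was not tested. When each cell took its subset from its own marker score instead of its cluster, the activated cells' summed share exceeded the mature cells' by a log2 ratio of 0.54 in PBS and 0.49 in AKK, in place of 1.57 and 1.72.

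Over all kept cells 0 of 34 members were higher in AKK and 1 was lower, against 6.51% and 8.48% of 18722 genes. That member was Hilpda, with 172 CPM in PBS and 104 in AKK. The pooled cells differed in make-up: T-like cells were 449 of 4646 in PBS and 878 of 6177 in AKK, and B-like cells 162 and 287. The part of this make-up in the pooled values was not tested. Neutrophil-like cells as a whole showed 0 of 33 measured members past the threshold in either direction, against 7.07% higher and 4.22% lower among 12729 genes. The summed share in AKK was 0.948 times that in PBS (95% interval 0.939 to 0.956). The Hspa1a and Hspa1b subset made up 10.1% of neutrophil-like cells in PBS and 3.91% in AKK, and without it the log2 ratio went from -0.08 to 0.03. With the 8 subsets weighted alike it was 0.09. The part of subset composition in the pooled ratio was not tested further. Naming each cell from its own marker score gave 9 members past the threshold, both directions counted together. The share of all genes past it under that naming was not computed, so this count has no background.

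Within the 2 high subsets the summed share was higher in AKK, by 1.07 times (1.05 to 1.10) in the Atp6v0d2 and Nos2 subset and 1.24 times (1.21 to 1.27) in the Hspa1a and Hspa1b subset. In the latter 7 of 33 members were higher and none lower, against 12.3% and 7.58% of 5239 genes. They were Slc2a3 (545 CPM in PBS and 993 in AKK), Pfkfb4 (60.2 and 103), Pgk1 (410 and 628), Vegfa (423 and 777), Bnip3l (394 and 598), Ndrg1 (149.6 and 233) and Hilpda (938 and 1665). In the former 5 were higher and 1 lower, against 13.1% and 6.81% of 6005 genes. The count of 5 is close to its background. They were Slc2a3 (129 and 358 CPM), Pdk1 (28.5 and 67.8), Egln1 (90.1 and 139.5), Ndrg1 (134 and 287) and Ankrd37 (36.1 and 105). In the Ffar2 and Il23a, Ifit1 and Gbp5, Retnlg and Mmp8 and mature Cxcr2 subsets 1, 2, 1 and 1 members were higher, against 4.83%, 5.73%, 6.06% and 5.4% of genes, and 2, 4, 5 and 2 were lower, against 6.79%, 7.02%, 7.28% and 5.84%. The higher members were Ankrd37 in the first of these, Egln1 and Ndrg1 in the second, Pfkp in the third and Ndrg1 in the mature subset. The lower ones besides Hilpda were Slc2a3 (356 and 223 CPM) in the Ffar2 and Il23a subset, Pfkfb3, Vegfa (212 and 134) and P4ha1 (124 and 73.3) in the Ifit1 and Gbp5 subset, Pfkfb3, Pgam1 (112 and 72.4), Eno1 (211 and 124) and Vegfa (148 and 93.3) in the Retnlg and Mmp8 subset, and Eno1 (152 and 99.5) in the mature subset. The Siglecf subset had 0 higher and 1 lower (Pfkfb3), against 10.9% and 4.32%, and the Camp and Ltf subset 0 and 0, against 6.4% and 6.93%. Pfkfb3 was lower past the threshold in 4 subsets, with 233 CPM in PBS and 130 in AKK in the Atp6v0d2 and Nos2 subset. In these 6 subsets the ratio of summed shares lay between 0.943 and 1.004. Its glycolysis and hypoxia parts did not always move together. The ratio was 1.08 for glycolysis and 0.764 for hypoxia members in the Ifit1 and Gbp5 subset. In the Ffar2 and Il23a subset it was 1.08 and 0.88, and in the Retnlg and Mmp8 subset 1.01 and 0.812. The Camp and Ltf subset had 0.974 and 1.096, the Siglecf subset 1.002 and 0.948 and the mature subset 0.965 and 0.978.

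Hilpda took opposite directions inside the neutrophils. In the mature Cxcr2 subset it had 73.8 CPM in PBS and 33.1 in AKK. The Ffar2 and Il23a subset had 213 and 107 CPM, the Ifit1 and Gbp5 subset 332 and 98.0 CPM, and the Retnlg and Mmp8 subset 165 and 38.1 CPM. In these 4 subsets AKK was past the threshold on the lower side. The Hspa1a and Hspa1b subset had 938 CPM in PBS and 1665 in AKK, past it on the higher side. Pooled over neutrophil-like cells, Hilpda had 292 and 221 CPM and did not pass. At 2000 UMIs per cell, 11.3% (8.42 to 14.8) of mature cells in PBS and 5.75% (4.26 to 7.58) in AKK held a Hilpda UMI. In the Hspa1a and Hspa1b subset 60.2% (53.0 to 67.1) and 62.9% (52.0 to 72.9) did. These intervals count the cells of 1 library per group and cannot decide whether the groups differ.

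Macrophage-like cells had a summed share 1.12 times as high in AKK as in PBS (1.11 to 1.14), and 24 of 34 members lay above 1. The median ratio over all measured genes found in both libraries was also above 1, at 1.059. The part of that shift in the count of members was not tested. The class drew on 3 clusters in unequal parts: the largest, led by C1qa, held 358 of 411 PBS cells and 315 of 427 AKK cells, and a cluster led by Arg1 and Ccl24 held 12 PBS cells (2.92%) and 51 AKK cells (11.9%). The summed share was 0.92% and 1.002% in the C1qa-led cluster, 1.404% and 1.80% in the Arg1-led one and 1.44% and 1.24% in the remaining one, so the direction differed between clusters. Median depth was 18412.5 and 15342 UMIs in the C1qa-led cluster and 3978 and 4362 in the Arg1-led one. The remaining one was shallow, at 1495 and 1226 UMIs, and the part of depth was not tested. Past the threshold were 3 higher and 2 lower, against 7.01% and 7.91% of 12261 genes, which is near the background. Pgk1, phosphoglycerate kinase, had 514 CPM in PBS and 812 in AKK. Within the C1qa-led cluster Pgk1 had 493 and 707 CPM, a smaller difference. Egln3 had 84.1 and 132 CPM over the class and 83.1 and 104 in that cluster, and Higd1a, a mitochondrial hypoxia gene, 115 and 176 CPM. Those 3 ratios of 1.58, 1.56 and 1.53 fell below 1.5 under scaling by the median of ratios, which left 2 members past the threshold, and also when cells needed at least 1000 UMIs.

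Hilpda was lower in AKK macrophage-like cells, with 288 CPM in PBS and 166 in AKK (ratio 0.579, 0.536 to 0.625). It did not reach the threshold when the 34 genes could shape the clusters (log2 ratio -0.56) or when cells were named by their own score (-0.58). A Hilpda UMI was found in 69.1% of these cells in PBS and 53.2% in AKK, at median depths of 15410 and 11166 UMIs. At 2000 UMIs per cell the shares were 31.9% (27.1 to 36.9) and 28.5% (24.0 to 33.4), closer together than without thinning. These intervals too count the cells of 1 library per group. Within the C1qa-led cluster Hilpda had 285 and 156 CPM. Adm had 26.5 and 2.39 CPM, but 107 of its 193 UMIs in PBS, or 55.4%, came from 1 cell. It was found in 29 of 411 PBS cells and 10 of 427 AKK cells. All 9 macrophage markers were lower in AKK macrophage-like cells, with a summed level of 11656 CPM in PBS and 6633 in AKK, whereas 6 of 8 monocyte markers were higher, with 1459 and 1885 CPM; none was at 0. Dissociation genes made up 0.99% and 0.76%, with 6 of 15 lower. The part of these differences in the members' values was not tested.

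Monocyte-like cells had a summed share 0.879 times as high in AKK (0.865 to 0.894). Of 33 members 1 was higher and 2 lower, against 10.9% and 8.07% of 10653 genes. Hilpda had 94.9 CPM in PBS and 35.3 in AKK, and at 2000 UMIs per cell 13.2% (9.57 to 17.6) and 5.09% (2.99 to 8.02) of cells held a UMI. Hk1 (the housekeeping hexokinase) had 135 and 69.3 CPM, and Pfkfb4 25.9 and 42.1 CPM. The 2 lower genes kept their side of the threshold in the alternatives run, while Pfkfb4 did not pass under scaling by the median of ratios. That scaling shifted all genes by -0.13 on the log2 scale here and by -0.14 in Arg1-led myeloid cells, and relative to it 7 monocyte-like members passed. The share of all genes that passed under it was not computed. The neutrophil markers summed to 7159 CPM in PBS and 2215 in AKK monocyte-like cells, 8 of 9 being lower in AKK and none at 0; their part in the difference was not tested.

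In Arg1-led myeloid cells 5 of 34 members were higher in AKK and none lower, against 12% and 5.81% of 10229 genes, which for the higher side is near the background. The class's cells lay in different clusters in the 2 libraries: 1 cluster held 60 of 223 PBS cells and 4 of 140 AKK cells, and another 57 (25.6%) and 78 (55.7%). The summed share was 1.11% and 0.941% in the former and 2.04% and 2.10% in the latter; in the other 2 it was 1.64% and 1.26%, and 1.30% and 1.39%. Ero1l had 473 CPM in PBS and 948 in AKK, a ratio of 2.00 (1.88 to 2.14), and 970 and 1505 CPM within the cluster that held most AKK cells. Pgk1 had 967 and 1545 CPM, Pgam1 (phosphoglycerate mutase) 496 and 746 CPM, and Egln3 316 and 511 CPM, or 652 and 746 CPM within that cluster. Slc2a3 also passed, from 27 and 28 UMIs. The summed share was 1.14 times as high (1.13 to 1.16), but its log2 ratio of 0.19 went to -0.08 when the 34 genes were allowed to shape the clusters. Neutrophil markers summed to 1498 CPM in PBS and 2261 in AKK in these cells, 6 of 9 being higher. Dissociation stress genes made up 1.05% and 0.933%, with 2 of 15 past the threshold, both lower: Hspa1a with 342 and 102 CPM and Hspa1b with 341 and 205 CPM. The part of cluster composition, neutrophil markers and dissociation in these differences was not tested.

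Other members did not pass in any of the neutrophil-, macrophage- and monocyte-like classes. Slc2a1 had 357 and 273 CPM in neutrophil-like, 261 and 247 in macrophage-like and 184 and 130 in monocyte-like cells. Ldha had 370 and 338, 545 and 571, and 258 and 229 CPM in the same order. Vegfa had 207 and 197, 387 and 442, and 83.5 and 101 CPM. Hif1a had 512 and 494, 628 and 817, and 826 and 813 CPM. Hk2 had 454 and 390, 676 and 509, and 474 and 319 CPM, and Gapdh 679 and 581, 1297 and 1349, and 853 and 650.3 CPM. Pdk1 had 17.2 and 17.7, 42.6 and 50.5, and 11.8 and 8.54 CPM, and Bnip3 117 and 115, 156 and 167, and 37.0 and 34.4 CPM. Ndrg1 had 88.3 and 131, 197 and 224, and 216 and 153 CPM. Ero1l had 466 and 383, 209.9 and 269, and 89.3 and 59.8 CPM. Adm had 8 and 10 UMIs in neutrophil-like and 0 and 3 in monocyte-like cells, too few to measure.

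**Figure D5:**
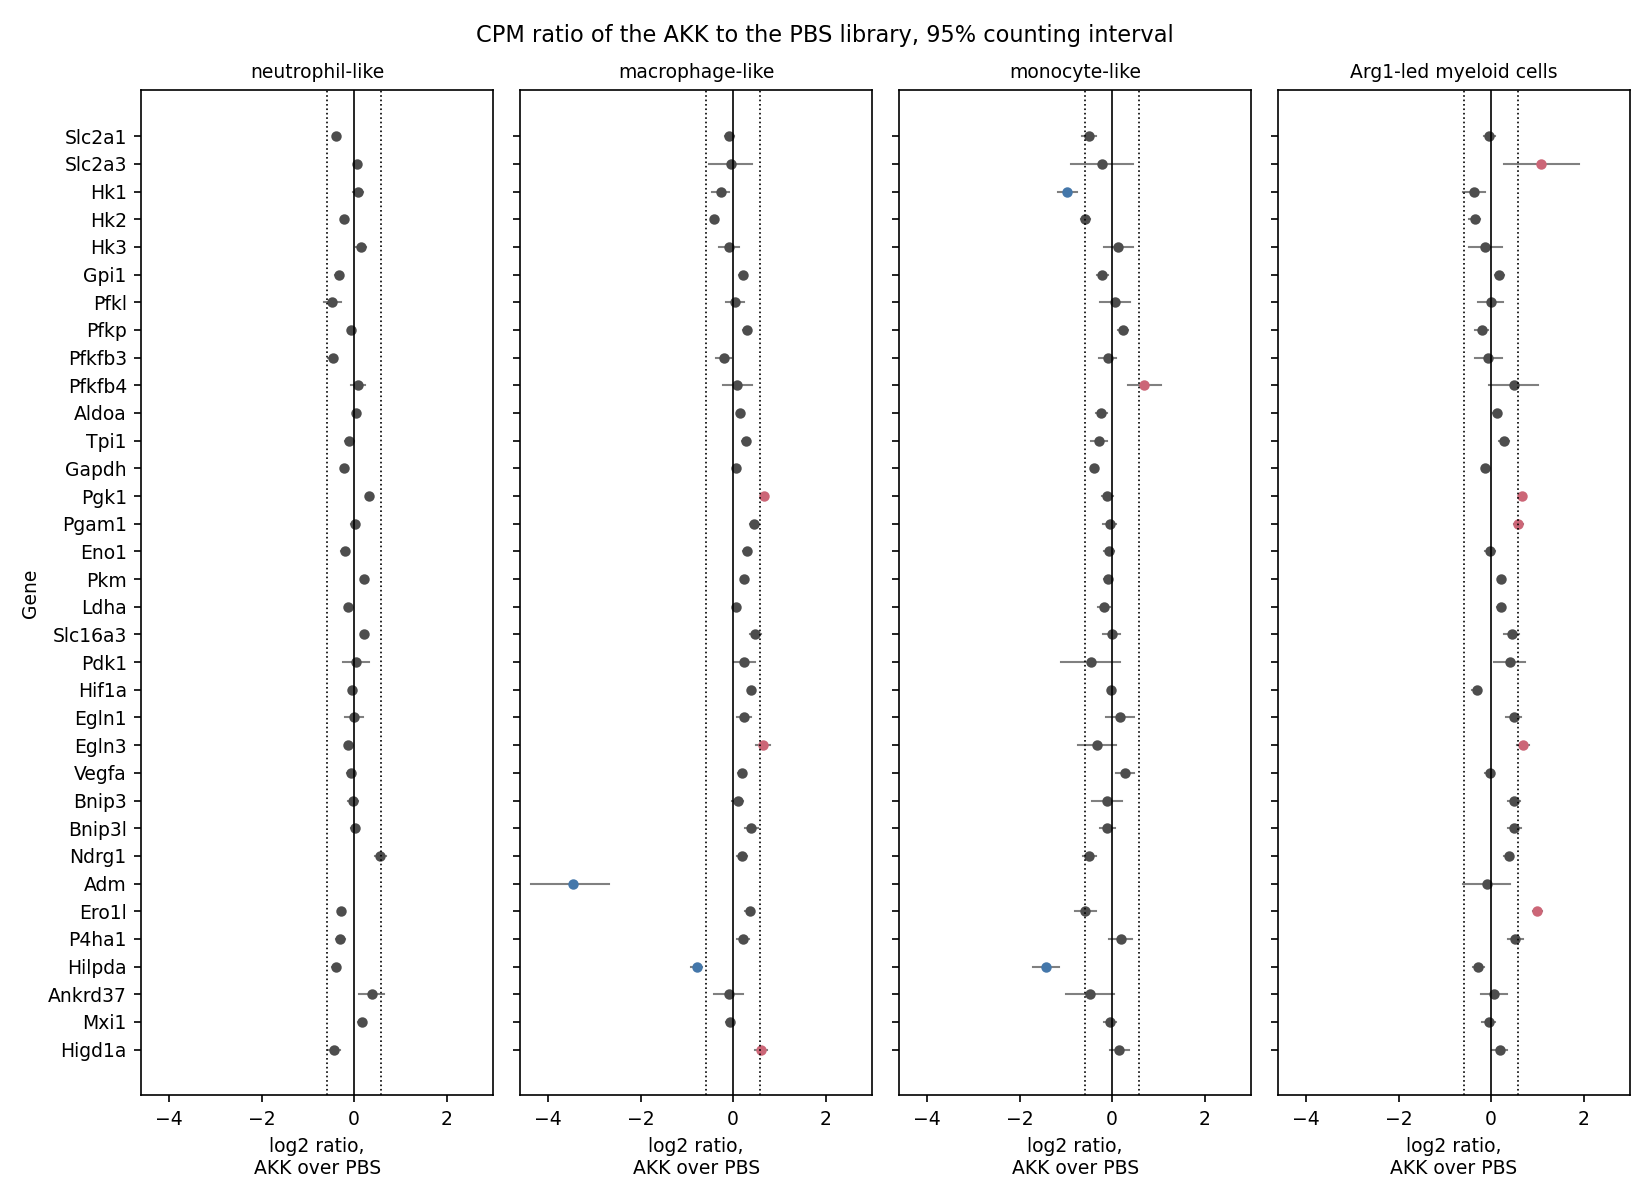
CPM ratio of AKK over PBS (x axis, log2) for each gene (y axis) in 4 classes, with 95% counting intervals; dotted lines mark 1.5-fold, red points passed as higher in AKK and blue points as lower, and genes with under 20 UMIs are left out. No point is coloured in neutrophil-like cells, and Hilpda is blue in macrophage-like and monocyte-like cells.

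In lymphocytes few members passed the threshold, at shares near or below those of all genes. The summed share of the hypoxia members still differed in some classes. Its AKK over PBS ratio was 0.848 (0.825 to 0.872) in T-like and 1.17 (1.08 to 1.27) in B-like cells. In NK/ILC1-like cells it was 0.979 (0.933 to 1.03). For glycolysis members the ratio was 0.982, 1.02 and 0.954 in the same order. T-like cells had 0 of 33 members higher and 2 lower in AKK, against 3.75% and 6.4% of 12130 genes. The 2 were Egln3, with 42.5 CPM in PBS and 27.0 in AKK, and Ndrg1, with 43.4 and 28.5 CPM. Neither passed when doublets were kept. NK/ILC1-like cells had 1 higher and 1 lower, against 4.82% and 7.31% of 10672 genes: Slc16a3 with 8.86 and 14.9 CPM, and Hk2 with 47.6 and 26.7 CPM. B-like cells had 2 higher and 1 lower, against 5.22% and 3.4% of 9294 genes. Ero1l there had 18.0 and 37.6 CPM, Hk1 20.1 and 35.0 CPM, and Adm 13.1 and 4.70 CPM. Myeloid precursor-like cells had 0 higher and 1 lower, against 8.93% and 5.76% of 11874 genes: Bnip3, with 23.6 and 13.7 CPM.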

How the data were processed

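The deposited files hold whole-number UMI counts per gene and cell barcode, made by the authors with Cell Ranger 7.1.0 per the file headers (5.0.1 and mm10 per the submitters' processing notes); the sources do not say whether introns were counted. Cells with under 200 genes or over 15% mitochondrial UMIs were removed, and doublets were removed with Scrublet at 0.8% per 1000 barcodes. Cells were clustered with Leiden in scanpy 1.11.5 without the 34 genes, and clusters were named from marker lists; the naming margin and the subset score were chosen after the clusters were seen. UMIs were summed per class or subset and library and divided by the class total. Ratios carry exact conditional binomial 95% intervals and shares exact Clopper-Pearson intervals, which cover counting error only. With 1 library per group no test was made. All 34 genes were measured or their UMIs given. Between libraries, genes past 1.5-fold in a class are named, with a fixed set in the main myeloid classes; between groups, the 5 with the widest span are named, and other genes were chosen after their values were seen. UMI counts are not compared between genes. Alternatives changed doublet removal, a UMI minimum, the clustering, the naming, the scaling and the weighting; 2 were added after seeing the data. The ratio and interval step was tested on simulated data. The genes and lists were chosen with earlier results of these data known.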

Additional observations from a re-analysis of the deposited data

Results flagged for a closer look

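The summed share of the 34 genes differed in direction between classes, and the difference between classes was not tested. Its AKK over PBS log2 ratio was 0.19 in Arg1-led myeloid cells, 0.17 in macrophage-like cells and 0.0976 in B-like cells. It was -0.185 in monocyte-like, -0.164 in myeloid precursor-like, -0.107 in T-like, -0.0773 in neutrophil-like and -0.0546 in NK/ILC1-like cells. Hk1 had a log2 ratio of 0.803 in B-like and -0.964 in monocyte-like cells. Egln3 had 0.691 in Arg1-led, 0.646 in macrophage-like and -0.657 in T-like cells. These differences were not tested either.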

How the results depend on the processing

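Values are log2 ratios of the summed share, AKK over PBS, unless named otherwise; main values were -0.08 in neutrophil-like, 0.17 in macrophage-like, -0.19 in monocyte-like, 0.19 in Arg1-led and -0.11 in T-like cells, and 1.57 (PBS) and 1.72 (AKK) for activated over mature neutrophils. With doublets kept, values were -0.14 in monocyte-like cells, 0.21 in macrophage-like cells, -0.0755 in T-like cells, 1.45 for activated over mature, PBS. The same setting gave 0.25 in Arg1-led myeloid cells. With at least 1000 UMIs per cell, values were 0.13 in macrophage-like cells, 2 members past the threshold in macrophage-like cells, 1.07 for activated over mature, PBS, 1.57 for activated over mature, AKK. The same setting gave 0.24 in Arg1-led myeloid cells. At Leiden resolution 2.0, values were -0.28 in monocyte-like cells, 6 members past the threshold in monocyte-like cells, 0.19 in macrophage-like cells, 1.51 for activated over mature, PBS. The same setting gave 1.65 for activated over mature, AKK, 0.089 in Arg1-led myeloid cells. With the 34 genes allowed to shape the clusters, values were 0.14 in macrophage-like cells, 1.62 for activated over mature, PBS, 1.81 for activated over mature, AKK, -0.0833 in Arg1-led myeloid cells. With each cell named by its own score, values were -0.18 in neutrophil-like cells, 9 members past the threshold in neutrophil-like cells, a member median of -0.31 in neutrophil-like cells, -0.21 in monocyte-like cells. The same setting gave 6 members past the threshold in monocyte-like cells, 0.14 in macrophage-like cells, 0.54 for activated over mature, PBS, 0.49 for activated over mature, AKK. With scaling by the median of ratios, values were -0.14 in neutrophil-like cells, a member median of -0.12 in neutrophil-like cells, -0.31 in monocyte-like cells, 7 members past the threshold in monocyte-like cells. The same setting gave 0.0871 in macrophage-like cells, 2 members past the threshold in macrophage-like cells, a member median of 0.10 in macrophage-like cells, 0.0549 in Arg1-led myeloid cells. With each cell weighted alike, values were -0.12 in monocyte-like cells, 0.28 in macrophage-like cells, -0.16 in T-like cells, 0.22 in Arg1-led myeloid cells. Without Gapdh, values were -0.16 in monocyte-like cells, 0.19 in macrophage-like cells, 0.24 in Arg1-led myeloid cells, 1.52 for activated over mature, PBS. The same setting gave 1.69 for activated over mature, AKK. With subsets weighted alike, values were 0.0944 in neutrophil-like cells. Without the Hspa1a and Hspa1b subset, values were 0.0304 in neutrophil-like cells. With Arg1-led cells counted as macrophage-like, values were 0.10 in macrophage-like cells. The last 2 settings were chosen after seeing the data. The direction turned in neutrophil-like cells when the subsets were weighted alike or the Hspa1a and Hspa1b subset was left out, and in Arg1-led cells when the 34 genes shaped the clusters; the cause was not tested. Of 60 values for single genes, 45 kept their side and 15 did not, with 0 reversed. No paired analysis was possible because each group has 1 library. Genes under 20 UMIs were not measured. Counts of members past the threshold join both directions in this section, and the share over all genes was not computed under these settings.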

Other observations

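Classes with under 100 cells in a library were described by level only. In tumour/epithelial-like cells (134 in PBS and 98 in AKK) Slc2a1 had 86.6 CPM in PBS and 139 in AKK, Pdk1 62.3 and 110, Ero1l 226.8 and 391, and Ankrd37 24.1 and 49.3. In cDC2-like cells (57 and 119) Hilpda had 177 and 85.1 CPM. In plasma-like cells (52 and 222) Vegfa had 52.7 and 24.8 CPM.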
